A study of Homo sapiens with 24 samples.

Results

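The smooth muscle contractile regulators are 10 genes whose products sit on or control the contractile actin apparatus: the transgelins TAGLN and TAGLN2, the calponins CNN1, CNN2 and CNN3, caldesmon (CALD1), smoothelin (SMTN), leiomodin 1 (LMOD1), the potassium channel subunit KCNMB1 and IRAG1. They were taken by symbol from the gene tables, and all 10 were found among the 37247 gene ids. The cells were MDA-MB-231, an established mesenchymal breast cancer cell line. There were 4 lines, named in the sample titles as Control, WT MRTF-A OX, dSAP MRTF-A OX and dSRF MRTF-A OX, and written here as control, WT, dSAP and dSRF. All 4 lines, control included, were labelled as given 1 µg/ml doxycycline for 72 h, which induces the MRTF-A construct in the last 3. The labels do not spell out what the dSAP and dSRF mutants lack, whether a line is a clone or a pool, or whether the 3 replicates are separate cultures, so p-values measure the spread between these libraries only. Cells grew either on plates (2D) or over a layer of matrigel, the extract of basement membrane (3D), with 3 libraries in each of the 8 groups and 24 in all.

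MRTF-A (gene MRTFA) is a coactivator that moves to the nucleus when monomeric actin is scarce and works with the transcription factor SRF, which binds a short DNA element called the CArG box. Together with the related factor myocardin, this pair drives the contractile genes of smooth muscle. Transgelins and calponins bind actin filaments, caldesmon and calponin 1 restrain the actomyosin ATPase, leiomodins nucleate actin filaments, and KCNMB1 and IRAG1 act in relaxation, as a subunit of the calcium-activated BK channel and as a partner of cGMP-dependent kinase at the inositol trisphosphate receptor.

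Promoter sequence was looked at because the CArG box is the element that SRF reads. The RefSeq promoter table (GRCh38.p14, 250 bases before to 50 bases after each start site) held 17 windows for 8 of the 10 genes, and TAGLN and IRAG1 were not among them. Each window was searched for the CArG box, whose pattern reads alike on both strands. It was found in 2 of the 17 windows, those of CNN2 and of the SMTN start site farthest along the gene, against 1.29% of all 35116 windows. The CNN2 box (chr19:1026519-1026528, + strand) lay 89 bases before the start site and upstream of the gene in GENCODE 29, and the SMTN box (chr22:31084952-31084961, + strand) lay 44 bases before its start site and within an intron of the gene in GENCODE 29. The 220 bases shown are chr19:1026358-1026577 and chr22:31084746-31084965, with the box in capitals.
CNN2: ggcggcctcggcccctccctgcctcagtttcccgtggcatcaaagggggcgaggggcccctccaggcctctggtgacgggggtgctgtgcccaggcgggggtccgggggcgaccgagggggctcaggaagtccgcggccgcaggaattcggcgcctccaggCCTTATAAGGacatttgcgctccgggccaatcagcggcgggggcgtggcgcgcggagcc
SMTN: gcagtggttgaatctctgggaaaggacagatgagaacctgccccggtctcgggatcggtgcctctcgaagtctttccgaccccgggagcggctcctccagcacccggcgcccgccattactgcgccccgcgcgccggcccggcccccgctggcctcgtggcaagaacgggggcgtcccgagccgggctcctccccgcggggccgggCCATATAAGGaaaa
A match describes the letters only, and a window without one says only that the letters are not in it.

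Total counts per library ran from 13968829 to 23023415. MRTFA checks the control titles against the others: it stood at 28.8 to 39.1 CPM (counts scaled to library size with TMM factors) in the 6 control libraries and at 664 to 10716 CPM in the 18 others. It does not check the WT titles against the dSRF titles, because their ranges overlapped. The genotype field of the labels disagreed with the title in 16 libraries and was not used. MRTFA differed between the lines, at 4444 to 4878 CPM in WT, 8765 to 10716 CPM in dSAP and, with the exception of 1 library, 3170.1 to 4857 CPM in dSRF, so a difference between lines cannot be told apart from a difference in construct level. That library, 3D dSRF replicate 1, had 664 CPM of MRTFA, and its expression profile correlated with its own group at r = 0.948, against 0.965 and 0.967 for the other 2 libraries of the group and 0.981 to 0.986 for the libraries of the other groups. Each of these values is a mean over the other 2 libraries of the group, so replicate 1 lowers those of replicates 2 and 3. With 2D dSRF the 3 libraries of 3D dSRF correlated at 0.966 to 0.968. Results on 3D dSRF are therefore given with and without replicate 1. VIM, CD44 and AXL of the 4 fixed MDA-MB-231 markers were high in every library, and SPARC was not, at 0.1 to 2.43 CPM. The smooth muscle markers of the fixed list that are not among the 10 genes were near 0 in every library: MYOCD reached at most 0.0986 CPM, MYH11 0.127 CPM and DES 0.194 CPM. The skeletal muscle factors MYOD1 and MYOG were at 0 throughout. Of the fibroblast and pericyte markers in dSRF, RGS5 averaged 111 CPM in 2D and 58.0 CPM in 3D against 2.66 and 4.27 CPM in control, while PDGFRB was lower, at 4.55 and 2.86 CPM against 32.4 and 12.02 CPM, as was LUM, at 0.843 and 0.842 CPM against 1.62 and 1.09 CPM, and DCN was at 0 in these 4 groups. The endothelial marker VWF averaged 18.6 and 25.7 CPM against 0.245 and 0.0940 CPM. PECAM1 and CDH5 of the same list were too low to be tested, at most 0.583 and 0.209 CPM in any library. Of the markers absent or low in MDA-MB-231, EPCAM averaged 92.0 and 100.2 CPM against 26.8 and 15.97 CPM. CDH1 averaged 0.551 and 0.366 CPM against 1.74 and 0.169 CPM, and ESR1 and PGR reached at most 0.0699 and 0.112 CPM in any library. The part of these shifts in the dSRF results was not tested.

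**Figure D1:**
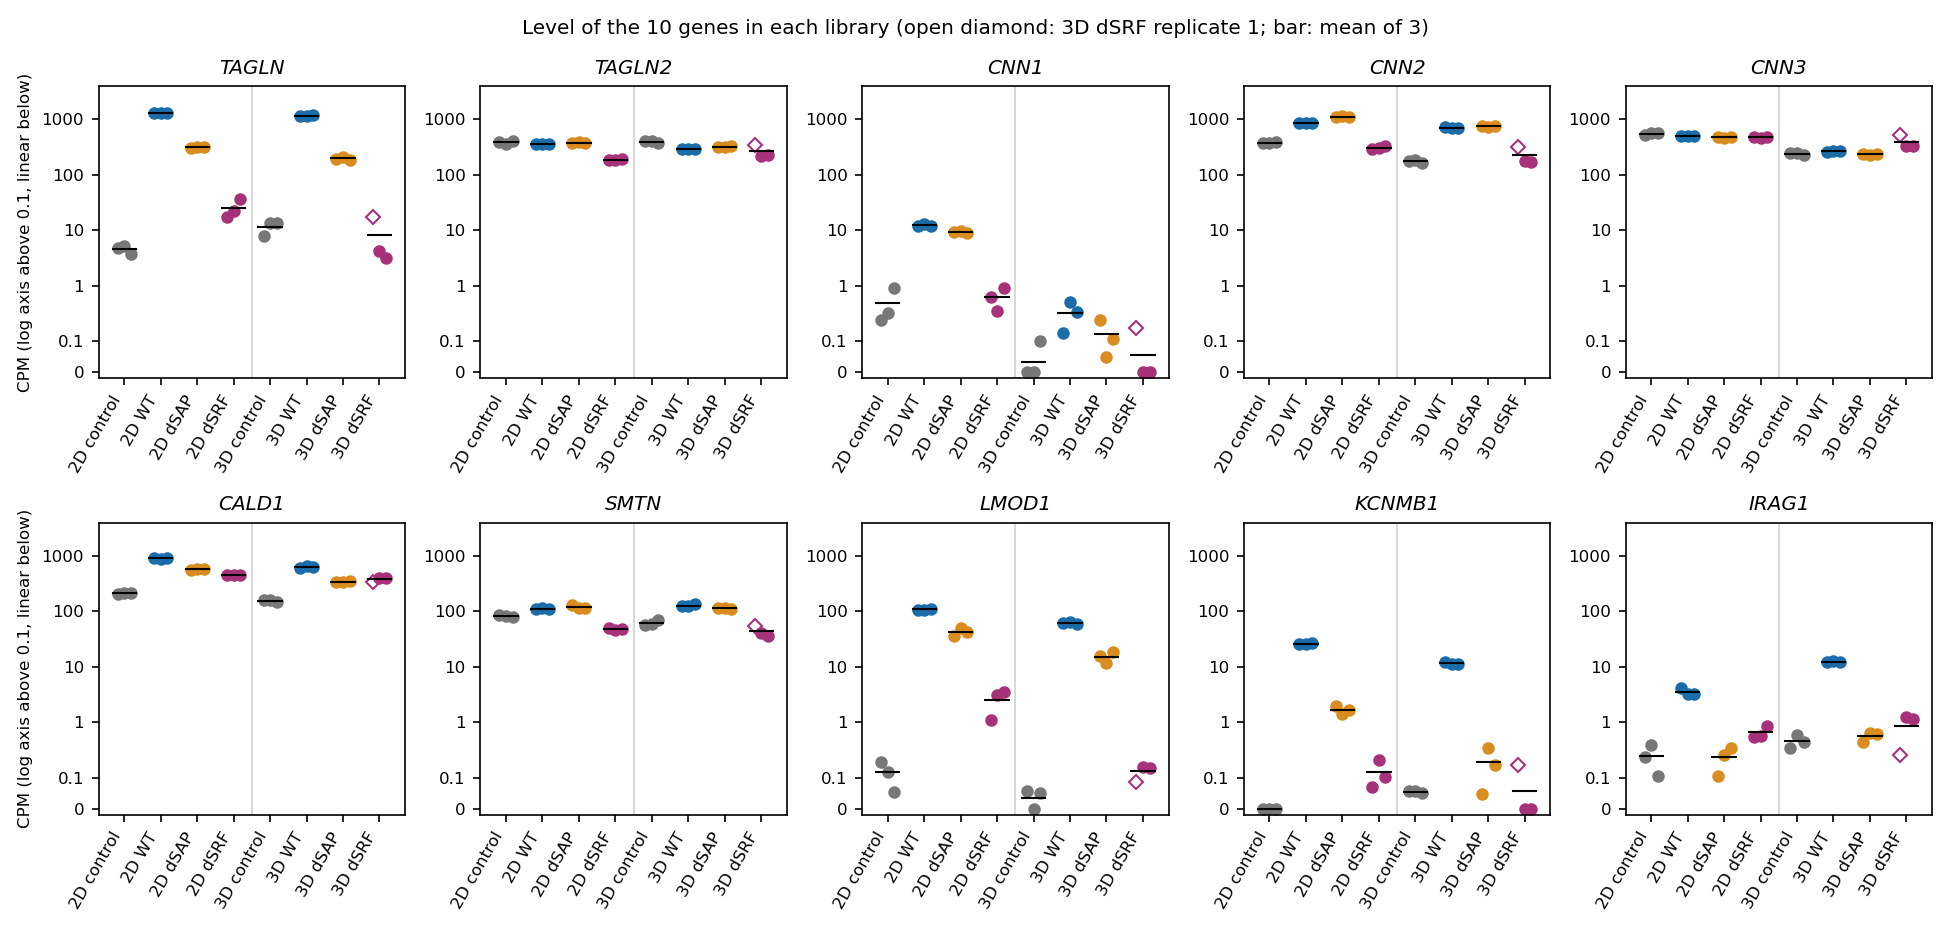
CPM of each of the 10 genes (1 panel each) in the 24 libraries, by group on the x axis, with a y axis that is logarithmic above 0.1 and linear below it. Points are libraries, bars are means of 3, and the open diamond is 3D dSRF replicate 1. TAGLN, LMOD1 and KCNMB1 span the widest ranges, with WT on top, and TAGLN2 and CNN3 the narrowest.

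TAGLN (SM22, ENSG00000149591, chr11:117199321-117204782 in hg38, + strand), an actin cross-linking protein and classic early smooth muscle marker, had the highest level per transcript length of the 10 genes in WT, at a mean of 2168 TPM in 2D. In 2D its CPM was 4.76, 5.33 and 3.81 in control, 1321, 1325 and 1329 CPM in WT, 308, 324 and 313 CPM in dSAP and 17.7, 22.7 and 37.1 CPM in dSRF. The 4 groups did not overlap, and the order was WT, dSAP, dSRF, control. The log2 fold change of WT against 2D control was 8.16 (SE 0.46, adjusted p = 4.77e-11), that of dSAP 6.09 (SE 0.43, adjusted p = 2.91e-09) and that of dSRF 2.50 (SE 0.42, adjusted p = 4.13e-05), all by edgeR's quasi-likelihood test with Benjamini-Hochberg adjustment over 14986 genes. All changes against control in a culture share the same 3 control libraries. In bulk RNA a change in the share of expressing cells and a change per cell cannot be told apart. In 3D it stood at 7.95, 13.6 and 13.6 CPM in control, 1149, 1173 and 1191 CPM in WT, 194, 211 and 188 CPM in dSAP and 17.2, 4.32 and 3.20 CPM in dSRF. WT and dSAP kept their order above control, with log2 fold changes of 6.64 and 4.07. The dSRF libraries split: replicate 1 lay above the control libraries and the other 2 below them. The 3D dSRF change was -0.47 (adjusted p = 0.316) with all libraries and -1.65 (adjusted p = 5.11e-04) without replicate 1. The gene overlaps PCSK7, which is on the opposite strand, shares exon sequence with it and stood at 38.7 to 116 CPM. Use of strand in the quantification is not stated in the labels or processing notes, so reads of the pair may not be fully separated.

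TAGLN2 (ENSG00000158710, chr1:159918107-159925732, - strand), the transgelin of non-muscle cells, followed another course. The 2D libraries read 391, 363 and 411 CPM in control, 353, 357 and 356 CPM in WT, 373, 387 and 377 CPM in dSAP and 183, 188 and 194 CPM in dSRF. The dSRF libraries lay apart from all others, with a log2 fold change against control of -1.05 (SE 0.11, adjusted p = 9.54e-08). The changes of WT (-0.13, 95% interval -0.36 to 0.10) and dSAP (-0.04, interval -0.26 to 0.19) did not pass the test, and that of WT passed without 3D dSRF replicate 1 (adjusted p = 0.00685). The 3D libraries read 404, 408 and 383 CPM in control, 296, 296 and 293 CPM in WT, 315, 312 and 330.2 CPM in dSAP and 351, 219.9 and 227 CPM in dSRF. All 3 lines fell against 3D control, WT by 0.44 (adjusted p = 0.00378), dSAP by 0.32 (adjusted p = 0.0324) and dSRF by 0.58 (adjusted p = 1.04e-04) on the log2 scale. The dSAP call was lost without control replicate 1 or 2 or any 1 of the 3 dSAP libraries (-0.30 to -0.35), and the dSRF change was -0.84 without replicate 1.

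CNN1 (calponin 1, ENSG00000130176, chr19:11538717-11550323, + strand), the smooth muscle calponin, was rare everywhere and close to absent in 3D. Its 2D level was 0.243, 0.321 and 0.924 CPM in control, 12.2, 13.1 and 12.2 CPM in WT, 9.40, 9.84 and 8.81 CPM in dSAP and 0.626, 0.349 and 0.931 CPM in dSRF. WT and dSAP rose against control, by 4.63 (SE 0.52, adjusted p = 5.84e-07) and 4.22 (SE 0.52, adjusted p = 3.02e-06) on the log2 scale, while dSRF overlapped control (0.39, adjusted p = 0.579). In 3D no library passed 0.515 CPM. The 3 WT libraries held 19 counts in all against 2 in control, a ratio of 8.61 with an exact 95% counting interval of 2.08 to 76.2 (adjusted p = 0.0268). That call was lost without WT replicate 2 or 3 or control replicate 1 or 2 (log2 change 2.44 to 2.89). All of the 4 counts of 3D dSRF were in replicate 1.

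CNN2 (calponin 2, ENSG00000064666, chr19:1026581-1039068, + strand), a calponin of many non-muscle cells, rose in WT and dSAP in both cultures. In 2D it was at 382, 374 and 390.2 CPM in control, 873, 873 and 864 CPM in WT, 1124, 1146 and 1111 CPM in dSAP and 289, 299.9 and 334 CPM in dSRF. WT rose by 1.19 (SE 0.15, adjusted p = 2.31e-06) and dSAP by 1.56 (SE 0.15, adjusted p = 1.2e-07) on the log2 scale. In 3D it was at 175, 188 and 167 CPM in control, 723, 688 and 698 CPM in WT, 771, 738 and 748 CPM in dSAP and 322, 182 and 170.5 CPM in dSRF. The rises there were 1.99 in WT (adjusted p = 2.59e-09) and 2.09 in dSAP (adjusted p = 3.13e-09). The 3D dSRF change was called with all libraries (0.35, adjusted p = 0.0435) but not without replicate 1 (-0.0077, adjusted p = 0.905), nor without any 1 of the 3D control libraries (0.31 to 0.40). In 2D dSRF the change was -0.31 (adjusted p = 0.0662), which passed without 3D dSRF replicate 1 (adjusted p = 9.46e-07). Counts of 11 CNN2 pseudogenes ran from 0 to 8 in any library.

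CNN3 (calponin 3, ENSG00000117519, chr1:94896949-94927278, - strand), the acidic calponin, kept close to control in 2D, at 514, 561 and 559 CPM in control and between 461 and 509.8 CPM in the 9 other libraries. All 9 lay below the control libraries, but the changes of -0.11, -0.20 and -0.19 for WT, dSAP and dSRF did not pass the test (adjusted p = 0.473, 0.167 and 0.131). Without 3D dSRF replicate 1, whose spread enters every test, all 3 passed as lower (adjusted p = 0.0202, 7.88e-05 and 6.52e-05). Levels in 3D were 244, 248 and 228 CPM in control, 261, 269 and 269.7 CPM in WT, 237, 226 and 241 CPM in dSAP and 528, 333 and 338 CPM in dSRF. Only dSRF passed the test among the 3 lines, at 0.74 (SE 0.11, adjusted p = 7.96e-06), or 0.48 (adjusted p = 1.54e-10) without replicate 1. Without that library the WT change of 0.15 passed as well (adjusted p = 0.00198).

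CALD1 (ENSG00000122786, chr7:134744252-134970728, + strand) was the gene of the 10 that rose in all 3 lines in both cultures. In 2D it read 209, 212 and 218 CPM in control, 912, 898 and 907 CPM in WT, 557, 579 and 579 CPM in dSAP and 459.7, 462 and 451 CPM in dSRF. Each line rose against control, by 2.09, 1.42 and 1.10 on the log2 scale (SE 0.05 each, adjusted p = 2.01e-16, 1.59e-13 and 7.71e-13), and the 4 groups did not overlap. In 3D it read 157, 162 and 146 CPM in control, 611, 668 and 644 CPM in WT, 344, 339 and 350.4 CPM in dSAP and 344, 397 and 399.6 CPM in dSRF. The rises were 2.05, 1.15 and 1.29, and the dSRF rise was 1.36 without replicate 1.

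SMTN (ENSG00000183963, chr22:31064105-31104757, + strand), a cytoskeletal protein of contractile smooth muscle cells, was already present in control and moved both ways. In 2D its level was 84.5, 82.6 and 80.6 CPM in control, 113, 114 and 110.3 CPM in WT, 129, 115 and 114 CPM in dSAP and 50.1, 46.7 and 48.9 CPM in dSRF. WT and dSAP rose by 0.44 (adjusted p = 0.0019) and 0.53 (adjusted p = 5.16e-04), and dSRF fell by 0.76 (adjusted p = 3.1e-06), each with an SE of 0.10 to 0.11. In 3D it was at 56.7, 58.8 and 70.8 CPM in control, 126, 123 and 133 CPM in WT, 114, 116 and 109 CPM in dSAP and 54.9, 41.1 and 36.0 CPM in dSRF. The changes there were 1.04, 0.86 and -0.50, the last of them -0.70 without replicate 1. SMTN and CNN2, whose promoter windows hold a CArG box, both rose in WT and dSAP in either culture, as did LMOD1 and CALD1, whose windows hold none.

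LMOD1 (ENSG00000163431, chr1:201896452-201946588, - strand) was nearly absent from control. In 2D the libraries held 0.194, 0.128 and 0.0544 CPM in control, 107, 107 and 110.5 CPM in WT, 35.4, 49.6 and 43.2 CPM in dSAP and 1.11, 3.08 and 3.46 CPM in dSRF. The log2 fold changes were 9.65 (SE 0.34, adjusted p = 4.04e-14), 8.30 (SE 0.35, adjusted p = 1.5e-12) and 4.28 (SE 0.50, adjusted p = 3.6e-07), and the groups did not overlap. In 3D it was at 60.6, 64.4 and 59.2 CPM in WT and 16.04, 11.5 and 18.2 CPM in dSAP. The 3D control libraries held 2 counts in all against 3667 in WT and 883 in dSAP, ratios of 1661 (exact 95% counting interval 459 to 13721) and 412 (114 to 3405). The 3D dSRF libraries held 8 counts, and the ratio of 3.49 had an interval of 0.696 to 33.7, so a change was not detectable there at this depth.

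KCNMB1 (ENSG00000145936, chr5:170374671-170389677, - strand) had no count in the 3 libraries of 2D control, where 3 counts over the group set the floor. It stood at 25.7, 25.7 and 26.7 CPM in 2D WT, 474 times that floor, and at 2.00, 1.42 and 1.68 CPM in 2D dSAP, 31.2 times the floor. The 2D dSRF libraries held 6 counts, at 0.0696, 0.210 and 0.103 CPM, or 2.27 times the floor. These ratios leave out the counting error of the higher group. All 3 lines were called against control (adjusted p = 4.25e-11, 6.31e-07 and 0.00986). In 3D it stood at 12.3, 11.2 and 11.4 CPM in WT, a ratio of 211 to the 3 counts of control (exact 95% counting interval 71.9 to 1026). The 11 counts of 3D dSAP did not differ detectably from control, nor did the 4 counts of 3D dSRF, all 4 of which were in replicate 1. All 6 WT libraries lay above all 6 dSAP libraries.

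IRAG1 (ENSG00000072952, named MRVI1 in GENCODE 29, chr11:10573091-10693988, - strand) was raised in WT and showed no detectable change in dSAP. In 2D the level was 0.243, 0.385 and 0.109 CPM in control, 4.14, 3.28 and 3.25 CPM in WT, 0.108, 0.259 and 0.348 CPM in dSAP and 0.557, 0.559 and 0.879 CPM in dSRF. WT rose by 3.85 (SE 0.45, adjusted p = 1.01e-06) and dSRF by 1.47 (SE 0.51, adjusted p = 0.0155), while dSAP overlapped control (-0.03, 95% interval -1.26 to 1.2). The dSRF call was lost without control replicate 3 (1.12) or dSRF replicate 3 (1.19). In 3D the WT libraries stood at 12.1, 12.7 and 12.1 CPM and all 9 others at 0.258 to 1.23 CPM. The 3D dSRF change was 0.89 (adjusted p = 0.0802), or 1.34 (adjusted p = 6.47e-04) without replicate 1.

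Ranked by group mean, TAGLN and LMOD1 followed the same order at the top: 2D WT, 3D WT, 2D dSAP, 3D dSAP and 2D dSRF, with no overlap between neighbours. Below that, 3D dSRF and the control groups overlapped for both genes. KCNMB1 had 2D WT, 3D WT and 2D dSAP at the top without overlap, and no library of the other groups above 0.352 CPM. CALD1 began with 2D WT and 3D WT and ended with 2D and 3D control, and of its neighbours only 3D dSRF and 3D dSAP overlapped. CNN2 was ordered 2D dSAP, 2D WT, 3D dSAP, 3D WT and 2D control without overlap. CNN3 was ordered by culture in its means, with the 4 groups of 2D above the 4 of 3D. Through replicate 1, at 528 CPM, 3D dSRF overlapped all 4 groups of 2D. For SMTN the WT and dSAP groups of both cultures were on top and overlapped in turn, and 2D and 3D dSRF were at the bottom. IRAG1 had 3D WT on top and 2D WT next, without overlap, and its other 6 groups overlapped in turn.

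**Figure D2:**
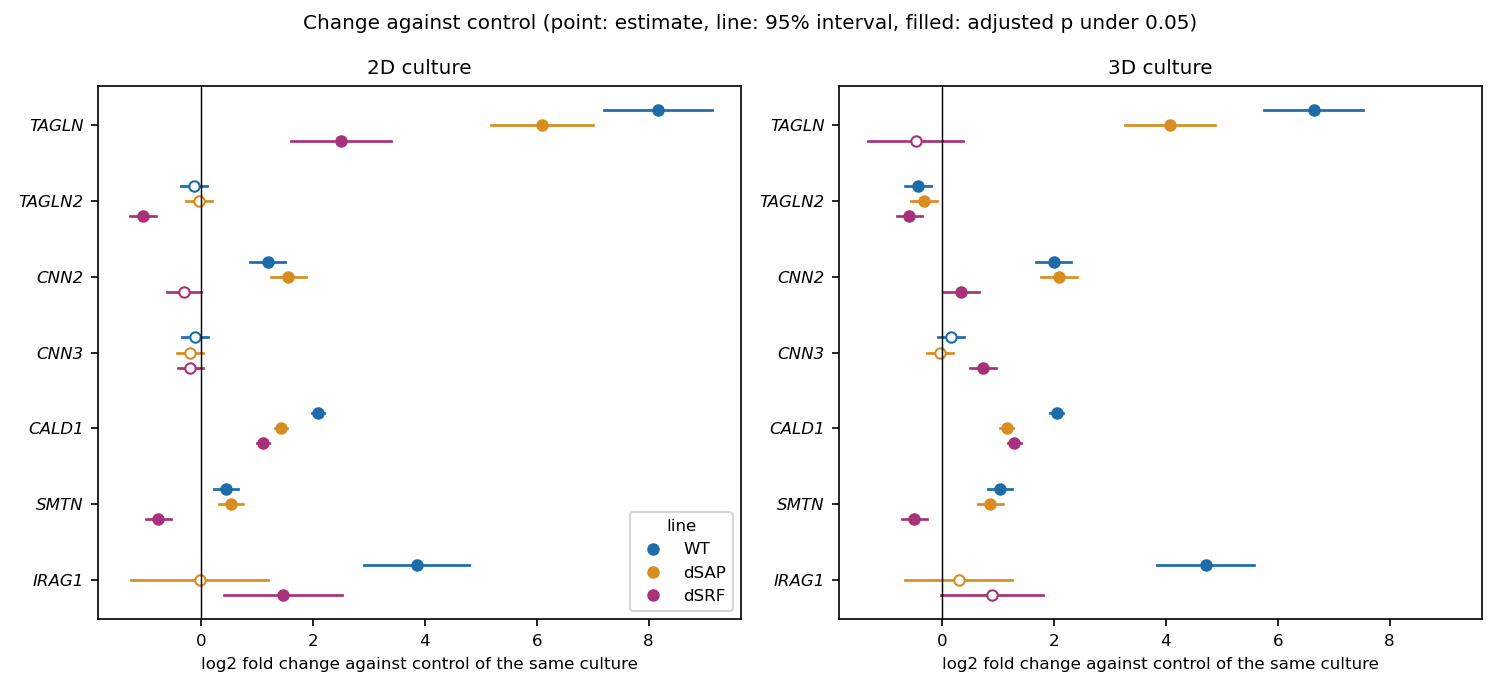
Log2 fold change against control of the same culture (x axis) for the 7 genes with more than 3 counts in every group, in WT, dSAP and dSRF, with 2D on the left and 3D on the right. Points are estimates, lines 95% intervals and filled points passed an adjusted p of 0.05. TAGLN in 2D steps from 8.16 in WT through 6.09 in dSAP to 2.50 in dSRF, and TAGLN2 and CNN3 lie near 0 in 2D WT and dSAP.

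Counted over the 10 genes, WT had the most calls against control. In 2D WT 8 genes rose and none fell, where 39.3% of all 14986 tested genes were called (20.1% higher, 19.2% lower). In 3D WT 8 rose and TAGLN2 fell, where 35.0% of all genes were called (18.0% higher, 17.0% lower). In dSAP 7 rose and none fell in 2D, where 32.9% of all genes were called (17.5% higher, 15.4% lower), and 5 rose and TAGLN2 fell in 3D, where 29.6% were called (16.5% higher, 13.1% lower). In dSRF 5 rose (TAGLN, LMOD1, KCNMB1, IRAG1 and CALD1) and 2 fell (TAGLN2 and SMTN) in 2D, a share near the 66.0% of all genes that were called (34.5% higher, 31.5% lower). In 3D dSRF 3 rose (CNN2, CNN3 and CALD1) and 2 fell (TAGLN2 and SMTN) against a background of 66.4% (35.1% higher, 31.3% lower). Without replicate 1 of 3D dSRF, IRAG1, CNN3 and CALD1 rose and TAGLN, TAGLN2 and SMTN fell there, against a background of 72.8%. All 10 genes passed the filter on low counts, but CNN1, LMOD1, KCNMB1 and IRAG1 passed it only through the groups where they were high, so these counts describe the list and support nothing further.

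The mutants were then compared with WT directly, within each culture. dSAP was lower than WT for the same 5 genes in 2D and 3D, TAGLN, LMOD1, KCNMB1, IRAG1 and CALD1, where 12.8% of all genes were called in 2D (5.09% higher, 7.71% lower) and 12.1% in 3D (5.45% higher, 6.63% lower). The log2 differences in 2D were -2.07 (SE 0.33, adjusted p = 2.77e-04) for TAGLN, -1.34 (SE 0.18) for LMOD1, -3.93 (SE 0.31) for KCNMB1, -3.88 (SE 0.46) for IRAG1 and -0.66 (SE 0.05) for CALD1. In 3D they were -2.57, -2.01, -5.89, -4.42 and -0.90 in the same order. The calponins CNN1, CNN2 and CNN3, SMTN and TAGLN2 did not pass the test in either culture. For CNN2 the 2D difference was 0.37 (95% interval 0.07 to 0.68, adjusted p = 0.102), and it passed without 3D dSRF replicate 1 (adjusted p = 4.96e-07), where 27.7% of all genes were called. The 95% interval for CNN1 in 2D ran from -1.28 to 0.44 and for SMTN from -0.13 to 0.30. In 3D, CNN3 (-0.19, adjusted p = 7.14e-04), SMTN (-0.17, adjusted p = 0.0324) and TAGLN2 (adjusted p = 0.0269, higher) passed as well without that library, 8 genes in all where 27.2% of all genes were called. The 2 comparisons with WT in a culture share the WT libraries. CNN1, LMOD1, KCNMB1 and IRAG1 passed the filter on low counts only through groups where they were high, 2D WT among them. Counts of genes lower than WT, for either mutant, therefore describe the list and support nothing further.

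dSRF was lower than WT for every gene but CNN3 in 2D, 9 of 10 against a background of 64.0% (33.6% higher, 30.4% lower), and CNN3 joined them without 3D dSRF replicate 1 (-0.09, adjusted p = 0.0469). The differences ran from -0.92 for TAGLN2 and -0.98 for CALD1 to -5.66 for TAGLN and -7.62 for KCNMB1. In 3D, 8 genes were lower and CNN3 higher (0.58, adjusted p = 1.10e-04), against a background of 65.9% (34.2% higher, 31.6% lower), and TAGLN2 overlapped WT (-0.15, adjusted p = 0.244). Without replicate 1 of 3D dSRF the TAGLN2 difference was -0.40 (adjusted p = 6.95e-09), CNN3 was 0.33 higher and the TAGLN difference widened from -7.11 to -8.29.

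Culture on matrigel was compared with plates within each line. CNN1 fell in 3D in all 4 lines, with log2 changes of -3.53 (control), -5.25 (WT), -6.02 (dSAP) and -3.23 (dSRF) and adjusted p = 0.00395, 1.98e-07, 1.49e-07 and 0.00799. In control that was 27 counts in 2D against 2 in 3D, a ratio of 13.4 (exact 95% counting interval 3.38 to 117), and the dSRF call was lost without 2D replicate 3 (-2.81). In WT that was a mean of 12.5 CPM in 2D and 0.329 CPM in 3D, and in dSAP 9.35 and 0.136 CPM. CALD1 fell in all 4 lines too, with changes of -0.46, -0.50, -0.73 and -0.27 in that order. CNN3 had changes of -1.18, -0.92 and -1.01 in control, WT and dSAP, all called, and in dSRF of -0.51 without 3D replicate 1 (adjusted p = 5.94e-10) and -0.25 (adjusted p = 0.12) with it. The losses of LMOD1 and KCNMB1 were -0.82 and -1.16 in WT and -1.48 and -3.13 in dSAP, all called. TAGLN fell in dSRF (-1.62, adjusted p = 0.00682), by more without 3D replicate 1 (-2.82) and with the call lost without 2D replicate 3 (-1.26). In the other direction, TAGLN rose in control by 1.35 (SE 0.45, adjusted p = 0.0184), IRAG1 rose in WT by 1.78 (SE 0.34, adjusted p = 2.47e-04) and TAGLN2 rose in dSRF by 0.50 (adjusted p = 0.00394, and 0.25 without replicate 1). The TAGLN call in control was lost without 2D replicate 3 or 3D replicate 2 or 3 (1.22 to 1.23). TAGLN2 fell in WT (-0.27, adjusted p = 0.0462), a call lost without any 1 of the 6 WT libraries (-0.27 to -0.29). Over the 10 genes, 1 rose and 5 fell in control where 47.4% of all genes were called (23.0% higher, 24.4% lower). In WT 1 rose and 6 fell where 50.0% were called (24.4% higher, 25.7% lower). In dSAP none rose and 6 fell where 47.8% were called (24.2% higher, 23.5% lower). In dSRF 1 rose and 5 fell where 17.0% of all genes were called (7.19% higher, 9.84% lower), and 2 rose and 8 fell without 3D replicate 1, where 48.2% were called. A fit on the 6 dSRF libraries alone called none of the 10 genes and 0 of all genes.

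**Figure D3:**
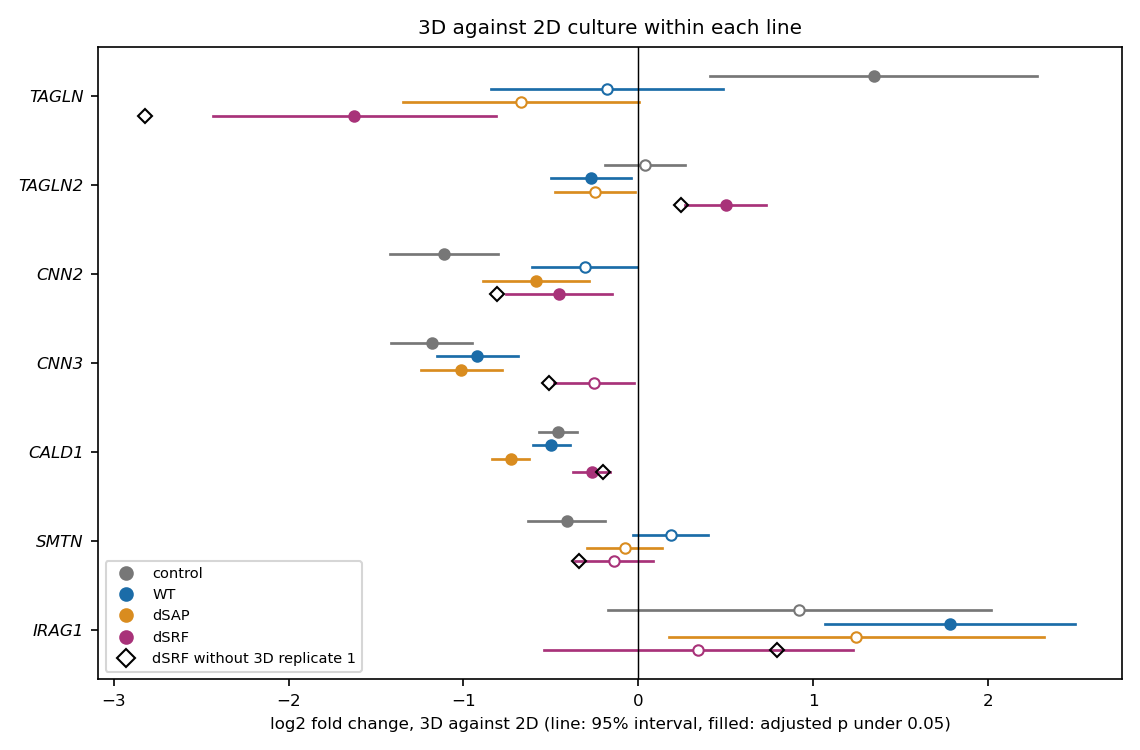
Log2 fold change of 3D against 2D culture (x axis) for 7 genes within each of the 4 lines, with 95% intervals, filled where the adjusted p was under 0.05. Black open diamonds give dSRF without 3D replicate 1. CNN3 and CALD1 lie left of 0 in all 4 lines, and TAGLN lies right of 0 in control (1.35) and left of it in dSRF (-1.62, or -2.82 without replicate 1).

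Whether a line's change against control differed between the cultures was tested as an interaction. For WT, CNN2 (0.80, SE 0.21, adjusted p = 0.0173) and SMTN (0.59, SE 0.15, adjusted p = 0.0135) changed more in 3D than in 2D, 2 of 10 genes where 9.18% of all genes were called (4.22% higher, 4.96% lower). The SMTN call was lost in the fits on TPM (0.57 to 0.58, adjusted p = 0.153 to 0.243). For dSAP none of the 10 passed edgeR's test, where 2.34% of all genes were called (1.13% higher, 1.20% lower), although 5 of the 10 had an unadjusted p under 0.05 and DESeq2 called 3. For dSRF, TAGLN differed by -2.97 (SE 0.59, adjusted p = 8.20e-04), TAGLN2 by 0.46 (adjusted p = 0.0305), CNN2 by 0.66 (adjusted p = 0.0211) and CNN3 by 0.93 (adjusted p = 1.52e-04), where 29.2% of all genes were called (14.7% higher, 14.6% lower). Without 3D dSRF replicate 1 these 4 differences were -4.17, 0.21, 0.31 and 0.67, all called. The TAGLN2 and CNN2 calls were lost without 2D dSRF replicate 1 (0.44 and 0.62) or 3D control replicate 3 (0.43 and 0.62), and that of TAGLN2 also without 2D control replicate 1 or 3 or 2D dSRF replicate 2 (0.42 to 0.46). Without 3D dSRF replicate 1 the counts were 6, 7 and 6 genes for WT, dSAP and dSRF, where 23.8%, 11.4% and 43.8% of all genes were called. TAGLN then differed between cultures in all 3 lines, by -1.53 (adjusted p = 0.00284), -2.02 (adjusted p = 8.16e-04) and -4.17 (adjusted p = 9.01e-07), with the change against control lower in 3D than in 2D each time. These 3 differences share 1 change in control, where TAGLN averaged 4.63 CPM in 2D and 11.7 CPM in 3D. The call for that control change was lost without some single libraries, as given above. WT itself averaged 1325 and 1171 CPM, dSAP 315 and 198 CPM and dSRF, with all libraries, 25.9 and 8.25 CPM.

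Levels per transcript length (TPM) show how the transgelin and calponin families were made up. Of transgelin TPM, TAGLN made up 1.35% ± 0.23 (SD, n = 3) in 2D control and 82.7% ± 0.11 in WT, while dSAP had 51.7% ± 0.019 and dSRF 14.6% ± 4.6. In 3D its share was 3.37% ± 0.88, 83.4% ± 0.34, 44.0% ± 1.6 and 3.10% ± 2.3, the last of them 1.76% ± 0.21 (n = 2) without replicate 1. The smooth muscle transgelin thus outweighed TAGLN2 in both WT groups and in 2D dSAP. Among the calponins CNN3 led in control and dSRF and CNN2 in WT and dSAP: in 2D the CNN2 share of control, WT, dSAP and dSRF was 38.5% ± 1.3, 59.8% ± 0.28, 67.5% ± 0.25 and 37.5% ± 1.2. In 3D the shares were 40.1% ± 0.40, 71.0% ± 0.84, 74.8% ± 0.56 and 34.6% ± 1.7. CNN1 never made up more than 1.06% of calponin TPM in a library. In 2D the summed TPM of all 10 genes averaged 1625 ± 26.6 for control, 4500.3 ± 63.2 for WT, 3081 ± 8.57 for dSAP and 1482 ± 77.5 for dSRF. The 3D sums were 1188 ± 13.3, 3961 ± 53.4, 2208 ± 17.0 and 1374 ± 236 for these lines. The dSRF sum thus lay below control in 2D and above it in 3D on average, and in 3D the lowest dSRF library (1202 TPM) overlapped the control libraries (1177 to 1203 TPM). Without replicate 1 the 3D dSRF mean was 1239 ± 52.4 (n = 2).

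**Figure D4:**
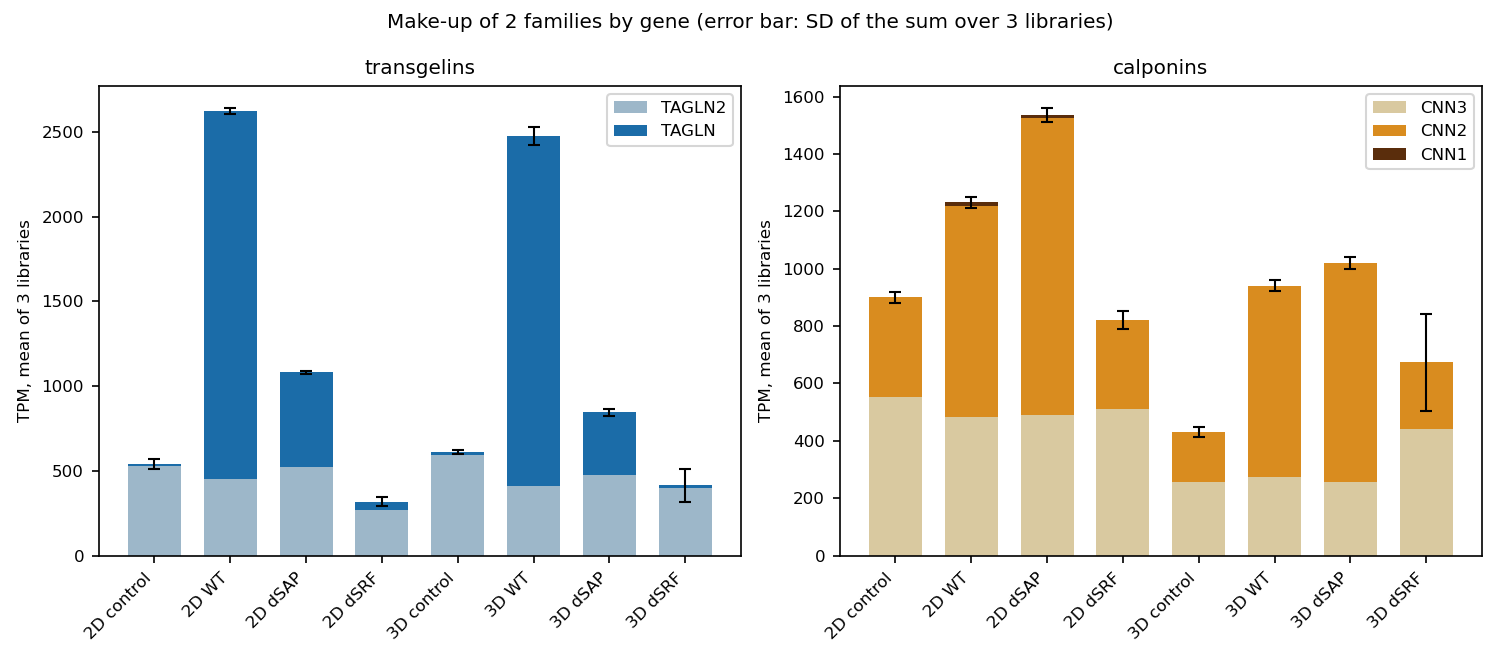
Mean TPM of the transgelins (left) and calponins (right) in each group, stacked by gene, with the SD of the sum over 3 libraries as error bars. TAGLN makes up 82.7% of the 2D WT bar and 1.35% of the 2D control bar, and CNN2 rises from 38.5% of the calponins in 2D control to 67.5% in 2D dSAP.

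The rest of the contractile pathway was read from 3 lists that hold none of the 10 genes. The lists were chosen with earlier results of these data known, so counts over them describe the lists and support nothing further. Of the contractile apparatus list (24 genes, 20 tested), 18 rose and none fell in 2D WT, with a median log2 change of 1.89 against -0.02 over all genes, of which 39.3% were called. In 2D dSAP 18 of 20 rose (median 1.42), where 32.9% of all genes were called. In 2D dSRF 6 rose and 3 fell (median 0.06), 9 of 20 where 66.0% of all genes were called. ACTA2, smooth muscle actin, rose by 7.68 in 2D WT, by 5.15 in 2D dSAP and by 2.48 in 2D dSRF, and CSRP1, VCL and TGFB1I1, which bind actin or adhesion proteins, rose by 2.39, 1.54 and 1.76 in WT. In 2D dSRF PDLIM7 rose by 0.68, while TPM1 and MYLK, a tropomyosin and the myosin light chain kinase, fell, with log2 changes of -1.13 and -1.503. In 3D 19 of the 20 rose in WT and 18 in dSAP, where 35.0% and 29.6% of all genes were called. In 3D dSRF 9 rose and 5 fell where 66.4% of all genes were called, and 9 rose and 8 fell without replicate 1, where 72.8% were called.

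Of the contraction and relaxation signalling list (21 genes, 15 tested), 8 rose and 1 fell in 2D WT, 6 rose and 2 fell in 2D dSAP, and 7 rose and 5 fell in 2D dSRF, with medians of 0.38, 0.18 and 0.14, where 39.3%, 32.9% and 66.0% of all genes were called. The 4 with the lowest adjusted p in 2D WT were ATP2A2, PPP1R12A, VASP and ROCK2, with rises of 0.82, 1.01, 1.56 and 0.39. In 2D dSRF the receptors ITPR1, ITPR2 and ITPR3, the class of channel that IRAG1 acts on, rose by 4.19, 1.55 and 1.37, and PDE5A, which breaks down cGMP, rose by 4.00. The BK channel gene KCNMA1 and the cGMP-dependent kinase gene PRKG1 of this list were too low to be tested. They reached at most 0.332 and 0.414 CPM in any library. Of the relatives of the 10 genes (13 genes, 6 tested), 2 rose in 2D WT, TMOD1 and TAGLN3, by 5.77 and 3.00. TMOD1, a tropomodulin related to LMOD1, also rose in 2D dSRF (2.66), as did TMOD2 (3.06), while TMOD3 and KCNMB4 fell by 0.30 and 1.44.

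Likeness of pattern was measured as Pearson's r of log2 CPM over the 8 group means among 7289 genes, a description in which all points share libraries. The closest genes were SLC25A4 for TAGLN (r = 0.989), SLC38A2 for TAGLN2 (0.956), KCTD4 for CNN1 (0.991), FGF1 for CNN2 (0.991) and AJUBA for CNN3 (0.989). For CALD1 the closest was ESCO1 (0.994), for SMTN GLP2R (0.985), for LMOD1 GARIN1B (0.995), for KCNMB1 C12orf54 (0.990) and for IRAG1 PDGFA (0.962). SLC25A4 was also among the 3 closest genes of LMOD1 (0.990).

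The ratio of a gene's count to its TPM follows the transcript length assigned to it, so a shift can mean another mix of transcripts. It was tested for the 6 genes with at least 20 counts in every library (TAGLN, TAGLN2, CNN2, CNN3, CALD1 and SMTN) among 11621 genes. By limma with Benjamini-Hochberg adjustment none passed the test in any of the 7 comparisons, where 0.129% to 4.64% of all genes did. The SE was 0.113 for SMTN and 0.0845 for CALD1 on the log2 scale, so small shifts there may be missed. TAGLN had an unadjusted p under 0.05 in 3 of them, with log2 changes of -0.15 in 2D WT, -0.15 in 2D dSAP and -0.12 in 2D dSRF, and CNN2 in 3D dSRF (-0.07). Without 3D dSRF replicate 1 the CNN2 change was -0.12 and passed (adjusted p = 0.0115).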

How the data were processed

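RNA-seq of 24 MDA-MB-231 libraries was analysed from 2 tables of the whole series. As deposited, the first holds each gene's estimated count in every library and the second its TPM, made with Salmon (version written as 11.3) against hg38 after FastQC, per the submitters' processing notes. The annotation is not named there. The labels' protocols give stranded total RNA with ribosomal depletion, while the molecule field says polyA RNA. Groups came from the sample titles. The 10 genes, the pathway lists and the markers were chosen with earlier results of these data known.

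Estimated counts were rounded, filtered with filterByExpr (14986 of 37247 genes kept) and fitted in 1 model over the 8 groups with edgeR 4.0.16 in R 4.3.3 (TMM factors 0.890 to 1.09, quasi-likelihood test, 16 residual degrees of freedom). P-values were adjusted by Benjamini-Hochberg over all genes tested, with calls at 0.05, for 17 comparisons. CPM used TMM-scaled library sizes. Count-to-TPM ratios were tested with limma 3.58.1. Count intervals cover counting error only, and library totals of 13968829 to 23023415 set the precision. All 10 genes were named, plus up to 4 genes per list with the lowest adjusted p in 2D WT and in 2D dSRF. KCNMA1 and PRKG1, which were not tested, were named as well.

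The alternatives were DESeq2 1.42.0, other size factors, no low-count filter, limma on log2(TPM + 1) or log2(TPM + 0.1), only the libraries compared, a replicate block and each library left out. The edgeR and limma steps were tested on simulated data. A change of sign between values that both failed the test was not counted as a reversal.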

Additional observations from a re-analysis of the deposited data

Results flagged for a closer look

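The changes of some genes against control differed between the cultures, by edgeR's interaction term with adjustment over all genes. The WT change was larger in 3D for CNN2 (by 0.80 on the log2 scale, from 1.19 in 2D to 1.99 in 3D) and for SMTN (by 0.59, from 0.44 to 1.04). The SMTN difference did not pass in the fits on TPM (0.57 to 0.58, adjusted p = 0.153 to 0.243). In both cases all 3 WT libraries lay above all 3 control libraries in each culture. Mean CNN2 was lower in 3D in both lines, going from 870 to 703 CPM in WT and from 382 to 177 CPM in control. Mean SMTN went from 112 to 128 CPM in WT and from 82.5 to 62.1 CPM in control.

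For dSRF the difference was -2.97 for TAGLN (from 2.50 in 2D to -0.47 in 3D), 0.46 for TAGLN2 (from -1.05 to -0.58), 0.66 for CNN2 (from -0.31 to 0.35) and 0.93 for CNN3 (from -0.19 to 0.74). The 3D dSRF libraries included replicate 1, at 664 CPM of MRTFA. Without it the differences were -4.17, 0.21, 0.31 and 0.67, and all 4 passed. Mean CNN3 went from 545 CPM in 2D to 240 CPM in 3D in control, and from 477 to 400 CPM in dSRF with all libraries.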

How the results depend on the processing

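Of 1267 values for the 10 genes under the alternatives that kept all libraries, 1207 stayed on the same side of the threshold, and 33 lost and 25 gained a call. The other 2 changed sign with a call on at least 1 side. Of the 1207, 31 changed sign with neither value called. Both sign changes that involved a call were LMOD1 in the dSAP interaction, 0.14 with edgeR and -1.18 on log2(TPM + 1) with or without the TPM filter. Without 1 library other than 3D dSRF replicate 1, 1358 of 1406 values kept their call status. Without that library 37 of 176 gained a call, and 4 changed sign with neither value called. With a call on 1 side, 1 changed sign, CNN2 in 3D dSRF against control, -0.0077 against 0.35 (0.51 at the highest, without replicate 3).

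With only the libraries compared, the calls among the 10 genes went from 5 to 9 for dSAP against WT in 2D and in 3D. They went from 6 to 0 for dSRF in 3D against 2D (a fit that called 0 of all genes, where 2551 were called with all libraries). For 3D dSRF against control they went from 5 to 3, where 66.4% of all genes were called with all libraries. For the interactions they went from 2 to 6 (WT), 0 to 5 (dSAP) and 4 to 2 (dSRF). Over all genes the interaction calls went from 1376 to 3463 (WT), 350 to 1400 (dSAP) and 4379 to 2642 (dSRF). On log2(TPM + 0.1) the calls among the 10 genes went from 7 to 4 for WT in 3D against 2D, where 50.0% of all genes were called on counts. The WT interaction went from 2 to 1 there, and had 4 on log2(TPM + 1) with or without the filter. The dSAP interaction had 3 with DESeq2, 1 with RLE size factors and 2 on log2(TPM + 1) with or without the filter. Over all genes the WT interaction had 856 calls on log2(TPM + 0.1) and 891 on log2(TPM + 1). The dSAP interaction had 598 with DESeq2 and 172 on log2(TPM + 1). The cause was not tested. With 1 library left out, the counts among the 10 genes ran from 5 to 8 for dSAP against WT in 3D, 3 (without 2D dSRF replicate 3) to 10 for dSRF in 3D against 2D, 2 to 6 for the WT interaction, 0 to 7 for the dSAP interaction, 2 (without 2D dSRF replicate 1 or 3D control replicate 3) to 6 for the dSRF interaction and 0 to 1 for length shifts in 3D dSRF. Each upper end was without 3D dSRF replicate 1. For the expression counts, 27.2%, 48.2%, 23.8%, 11.4% and 43.8% of all genes were called there, in that order. With all libraries these shares were 12.1%, 17.0%, 9.18%, 2.34% and 29.2%. The lower end of 3 came with 1599 calls over all genes.

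No pairing by replicate number was seen: in none of the group pairs did all 3 same-numbered deviations correlate over 0.1. The labels do not say whether same-numbered libraries share a culture or day, and this check cannot exclude it. With the replicate block CNN2 in 3D dSRF against control lost its call (0.33, adjusted p = 0.0560) and IRAG1 in 3D against 2D dSAP gained one (1.25, adjusted p = 0.0469). On log2(TPM + 0.1) the median change of all genes reached 0.20 in 2D dSRF against WT, where it was 0.03 on counts. Over all genes, those called for dSAP against WT went from 1919 to 4288 in 2D and from 1810 to 4607 in 3D with only the libraries compared. On log2(TPM + 1) the share of calls that were higher went from 51.1% to 37.7% in 2D WT against control and from 39.8% to 75.5% in 2D dSAP against WT.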
